A study of Macaca mulatta with 24 samples.

Results

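The genes described here are the SR proteins, the heterogeneous nuclear ribonucleoproteins (hnRNPs), the LUC7-like proteins and the factors that work directly with them, as read by RNA-seq in omental white adipose tissue (WAT) of female rhesus macaques. They were chosen by symbol: SRSF followed by a number, any symbol starting with HNRNP, and LUC7L, LUC7L2, LUC7L3, SNRNP70, SRRM1, SRRM2, TRA2A, TRA2B and CLK1 to CLK4. No measured value enters that rule, but the set was proposed with earlier results of these data in view, in which LUC7L3 stood out in the comparisons of each single treatment with controls. The rule found 40 of the 32386 genes in the table: 10 SR proteins, 18 hnRNPs, 4 SR-related proteins (SRRM1, SRRM2, TRA2A and TRA2B), 4 proteins of the U1 snRNP or its LUC7-like partners (SNRNP70, LUC7L, LUC7L2 and LUC7L3) and 4 CDC-like kinases. SRSF1, SRSF3 and HNRNPD had no row with that symbol and were not analysed here.

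The 24 animals formed 4 groups of 6, each animal giving 1 library. Controls (C) carried cholesterol implants and ate monkey chow, the T group carried testosterone implants on the same chow, the WSD group carried cholesterol implants on a high-fat Western-style diet, and the T + WSD group received both testosterone and that diet. Treatment lasted 3 years, the biopsy was taken in year 3, and the labels give the age as 4 years. The study's methods give an older age at biopsy, and age was not used here. Per the study's methods the animals sequenced were picked from larger groups because they were typical of their group in fat mass and insulin, so the spread within groups may be narrower than in animals taken at random. The design asks what each treatment does alone, what the pair does together, and whether the effect of testosterone depends on the diet. The samples were whole tissue and not sorted cells, so fewer cells of a type and less RNA per cell cannot be told apart.

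Pre-mRNA splicing removes introns through the spliceosome, whose U1 snRNP recognises the start of each intron. SR proteins mostly bind exons and help the spliceosome find weak sites, while many hnRNPs bind silencer elements and oppose them, so their balance sets much of alternative splicing. LUC7-like proteins join the U1 snRNP at the intron start, and CDC-like kinases (CLKs) phosphorylate SR proteins and release them from nuclear speckles. In fat cells SR proteins are known from insulin signalling and adipogenesis, for instance SRSF5 in the splicing of protein kinase C beta and SRSF10 in the splicing of lipin.

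Library totals ran from 6899185 to 28270776 counts with a median of 20630512.5. In 8 libraries, 2 of each group, the gene ENSMMUG00000038258 took 9.92 to 54.7% of the counts, against 0.879 to 2.51% in the other 16, and these 8 are called the high-share libraries below. The adipocyte transcript PLIN1 (perilipin on the lipid droplet) had 315 to 2812 CPM (counts per 1000000, scaled by TMM, the trimmed mean of M values). ADIPOQ (adiponectin) had 381 to 2124 CPM. Other rows of the 11 in the adipocyte list reached lower values, with LEP at 4.39 to 1576 CPM and CIDEC at 38.1 to 659. DGAT2 had 65.2 to 4397 CPM, ADIRF 0.674 to 4.55 and the FABP4 row ENSMMUG00000020987 0.937 to 3.26. LPL, LIPE, CD36 and the FABP4 row ENSMMUG00000041192 did not fall below 348.8 CPM. The list summed to 3806 to 23042 CPM in C and 18387 to 30089 in T + WSD. The mesothelial list (14 genes of the lining of the omentum, such as MSLN and KRT18) summed to 3533 to 41616 CPM in C, 3329 to 18771 in T, 958 to 6910 in WSD and 350 to 3569 in T + WSD, and none of its 14 rows was at 0 in all libraries.

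All 40 genes were among the 15207 that passed the filter on low counts. Most were well counted, but SRRM2, a scaffold of nuclear speckles, had 2 to 34 counts per library and SRSF12 had 1 to 40, so values for these genes carry large counting error. Whether the SRRM2 row covers the whole gene was not tested. SRSF2, the SR protein also known as SC35, had 27 to 214 counts. The median coefficient of variation of the 40 genes was 12.6% within C, 11.5% within T, 11.2% within WSD and 7.03% within T + WSD. Medians over all tested genes were 23.5, 20.4, 23.3 and 15.7%. The genes compared were not matched for level, and genes with few counts carry more counting error.

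In T + WSD animals 11 of these genes fell against C, most of them hnRNPs. By edgeR's quasi-likelihood test (adjusted p under 0.05 over all tested genes) the 11 were 27.5% of the set, and none of the 40 genes was called higher. Over all tested genes 17.1% were called in either direction and 9.94% lower. The 11 comprised 9 of the 18 hnRNPs, 1 of the 10 SR proteins (SRSF7) and 1 of the 4 SR-related proteins (TRA2B), with 0 of the 4 U1 and LUC7-like genes and 0 of the 4 CLKs. The median log2 fold change was −0.24 over the 18 hnRNPs, 16 of which were lower, −0.15 over all 40 genes and −0.04 over all tested genes. These were small differences. With a fold change over 1.5 also required, 1 of the 40 genes (HNRNPA1) was called, beside 5.29% of all tested genes called lower under the same rule.

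HNRNPA1, the hnRNP best known for binding exonic and intronic silencers, had 165 to 276 CPM in C (median 201), 142 to 242 in T (median 209), 128 to 217 in WSD (median 166) and 127 to 147 in T + WSD (median 133). All 6 T + WSD animals were below every C animal, while the T and WSD ranges overlapped C. Its log2 fold change in T + WSD against C was −0.60 (SE 0.15, adjusted p = 0.0117, edgeR). HNRNPA0, a relative that binds AU-rich elements of mRNAs, had 21.9 to 38.2 CPM in C (median 26.4), 19.3 to 29.4 in T (median 26.7), 20.4 to 35.9 in WSD (median 25.0) and 16.8 to 22.6 in T + WSD (median 18.2). Here 5 of the 6 T + WSD animals were below every C animal. The log2 fold change of HNRNPA0 was −0.53 (SE 0.14, adjusted p = 0.0130, edgeR).

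HNRNPF and HNRNPH2 belong to the family that binds G-rich sequence. HNRNPF ranged from 148 to 217 CPM in C (median 202), from 160 to 207 in T (median 180), from 141 to 219 in WSD (median 185) and from 136 to 149 in T + WSD (median 144). It was below every C animal in 5 of the 6 T + WSD animals, with a log2 fold change of −0.41 (SE 0.11, adjusted p = 0.0160, edgeR). HNRNPH2 had 133 to 186 CPM in C (median 158) and 128 to 144 in T + WSD (median 134), and its log2 fold change was −0.25 (SE 0.08, adjusted p = 0.0384, edgeR). The other 2 members of this family, HNRNPH1 at −0.14 and HNRNPH3 at −0.09, did not pass the test.

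HNRNPR, a close relative of SYNCRIP, had 110 to 153 CPM in C (median 122), 90.5 to 140 in T (median 115), 101 to 130 in WSD (median 104) and 92.9 to 108 in T + WSD (median 97.5). The C and T + WSD ranges did not overlap, and the log2 fold change was −0.39 (SE 0.11, adjusted p = 0.0161, edgeR). HNRNPK, which binds C-rich RNA through KH domains, had 296 to 380 CPM in C (median 347) and 266 to 321 in T + WSD (median 284). These ranges overlapped, and HNRNPK fell by 0.26 on the log2 scale (SE 0.08, adjusted p = 0.0271, edgeR).

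HNRNPDL, a paralogue of HNRNPD, had 125 to 226 CPM in C (median 165), 131 to 156 in T (median 140), 116 to 132 in WSD (median 126) and 119 to 140 in T + WSD (median 128). The wide C range reached down into that of T + WSD, and the log2 fold change was −0.36 (SE 0.11, adjusted p = 0.0293, edgeR). HNRNPL and HNRNPLL, which bind CA-rich RNA, both had C and T + WSD ranges that did not overlap. HNRNPL had 181 to 198 CPM in C and 150 to 178 in T + WSD (log2 fold change −0.21, SE 0.07, adjusted p = 0.0377, edgeR). For HNRNPLL, known for CD45 splicing in lymphocytes, C had 47.2 to 63.8 CPM and T + WSD 40.4 to 46.8 (log2 fold change −0.29, SE 0.09, adjusted p = 0.0375, edgeR).

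Outside the hnRNPs, SRSF7, an SR protein that also serves in mRNA export, had 39.1 to 65.2 CPM in C (median 62.4), 43.4 to 63.2 in T (median 48.9), 38.3 to 58.4 in WSD (median 51.2) and 39.1 to 46.9 in T + WSD (median 41.6). Its C range covered all T + WSD values, since C replicate 6 was as low as the T + WSD group, and the log2 fold change was −0.42 (SE 0.12, adjusted p = 0.0220, edgeR). TRA2B, which promotes inclusion of exons with GA-rich enhancers, had 105 to 147 CPM in C (median 129) and 95.5 to 114 in T + WSD (median 104), and its log2 fold change was −0.31 (SE 0.09, adjusted p = 0.0235, edgeR). TRA2A, its paralogue, had a log2 fold change of −0.20 (adjusted p = 0.103, edgeR).

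**Figure D1:**
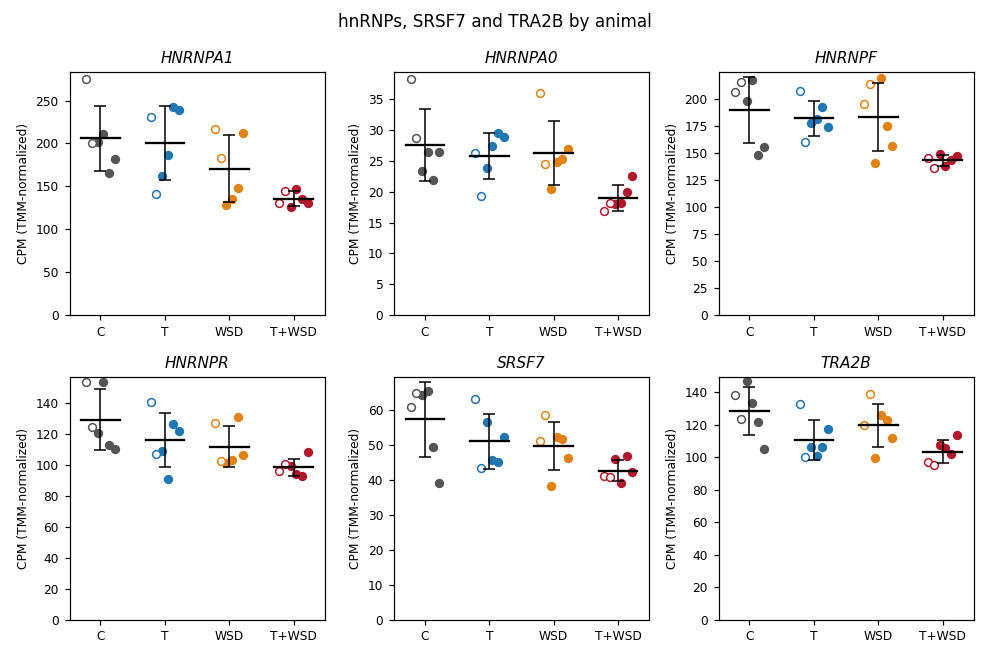
CPM (TMM-normalized, linear axis from 0) of HNRNPA1, HNRNPA0, HNRNPF, HNRNPR, SRSF7 and TRA2B in each of the 24 animals by group, with the mean and SD of 6 animals as bars and the high-share libraries as open circles. For HNRNPA1 and HNRNPR every T + WSD animal lies below every C animal, and the T + WSD points are the most tightly packed in these 6 panels.

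Without overlap below C lay 4 of the 40 genes (HNRNPA1, HNRNPL, HNRNPLL and HNRNPR), beside 4.12% of all tested genes. The hnRNPs were not uniform. HNRNPA3, an A/B relative of HNRNPA1, stood at 75.8 to 106 CPM in C and 90.5 to 103 in T + WSD with a log2 fold change of 0.01, and HNRNPA2B1 at −0.13 did not pass the test (adjusted p = 0.477, edgeR). HNRNPUL1 had a log2 fold change of 0.10 and HNRNPM, which binds GU-rich RNA, one of −0.28 (adjusted p = 0.0878, edgeR), neither of which passed.

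The number of calls depended on which animals and libraries were in the fit. C replicate 1 had the highest CPM of its group for 18 of the 40 genes (26.4% of all tested genes), and without that animal 2 of the 40 genes were called, HNRNPA0 and HNRNPA1, while the share of all tested genes called went from 17.1% to 9.11%. The counts of called genes were 7 without C replicate 2 (16.7% of all tested genes), 6 without C replicate 3 (11.2%) and 14 without C replicate 5 (19.5%). They were 5 without T + WSD replicate 7 (13.1%), 4 without T + WSD replicate 8 (11.4%), 7 without T + WSD replicate 10 (12.4%) and 6 without T + WSD replicate 11 (14.4%), and 8 to 12 in the other fits that left out 1 animal (12.7 to 18.1%). HNRNPA0 and HNRNPA1 were called in each of the 24 fits that left out 1 animal, and all 11 genes had negative log2 fold changes in each of them. The 11 genes had been picked as lower on these same animals. Their signs in these fits, and in the library sets that follow, are therefore a description only. The 14 genes called without C replicate 5 include LUC7L3, which was singled out on comparisons with C. Within the 16 libraries outside the high-share set the 11 genes had log2 fold changes of −0.48 to −0.17 (median −0.26), and within the 8 high-share libraries of −0.95 to −0.26 (median −0.51). A fit of edgeR on the 16 alone called 0 of the 40 genes, beside 0.544% of all tested genes, and 6 had an unadjusted p under 0.05, beside 21.1%.

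Markers of other cell types also moved in T + WSD against C, where 9.94% of all tested genes were called lower and 7.18% higher. Of the mesothelial list 12 of 14 genes were called lower, and its mean log2 CPM was 6.40 to 7.78 in C and 2.98 to 5.48 in T + WSD, without overlap. Of 10 endothelial genes 6 were called higher, with summed levels of 1050 to 1759 CPM in C and 1973 to 3048 in T + WSD. Called higher, too, were 3 of 8 smooth muscle and pericyte genes, 2 of 11 adipocyte genes, 2 of 11 macrophage genes and 1 of 8 fibroblast genes, and 0 of 6 T and NK cell, 0 of 4 B and plasma cell and 0 of 2 erythroid genes were called. With the mesothelial mean as a covariate, edgeR called 0 of the 40 genes and 0% of all tested genes, and 1 of the 40 had an unadjusted p under 0.05, beside 3.29%. The 11 genes, picked as lower on these same animals, then had log2 fold changes of −0.26 to −0.04. The part of the other cell types in these differences was not tested.

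The rest of the splicing machinery was read from lists written from general knowledge. Of 39 tested core spliceosome genes 11 were called lower and 0 higher in T + WSD against C, beside 9.94% and 7.18% of all tested genes, with a list median of −0.20. The 3 with the smallest p were PLRG1 of the Prp19 complex (log2 fold change −0.47, adjusted p = 0.00539, edgeR), the helicase DHX15 that takes spent spliceosomes apart (−0.40, adjusted p = 0.00774, edgeR) and CDC5L, a core partner of PLRG1 (−0.26, adjusted p = 0.0111, edgeR). Of 38 other splicing regulators 9 were called higher and 9 lower. SON, a speckle scaffold, was higher (0.37, adjusted p = 0.00542, edgeR) and so was QKI, an RNA-binding regulator of splicing (0.56, adjusted p = 0.00808, edgeR), whereas RBM39, a U2AF-related factor, was lower (−0.38, adjusted p = 0.00755, edgeR). SR protein kinases other than CLKs, phosphatases and topoisomerase together gave 0 calls of 9.

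Stress-linked lists were read beside the splicing lists, against the same 9.94% of all tested genes called lower: 3 of 9 heat shock genes were called lower, the mitochondrial co-chaperonin HSPE1 (log2 fold change in T + WSD against C −0.25, adjusted p = 0.0315, edgeR), the co-chaperone DNAJA1 (−0.56, adjusted p = 0.0407, edgeR) and the constitutive chaperone HSPA8 (−0.47, adjusted p = 0.0435, edgeR), and 1 of 11 immediate early genes, the AP-1 subunit JUND (−0.71, adjusted p = 0.0310, edgeR).

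Against T animals, which differ from T + WSD by diet alone, 2 of the 40 genes were called, both hnRNPs and both lower in T + WSD, beside 6.50% of all tested genes in either direction and 3.20% lower. HNRNPA1 had a log2 fold change of −0.56 (SE 0.15, adjusted p = 0.0324, edgeR). HNRNPM had 117 to 208 CPM in T (median 151), 122 to 172 in WSD (median 155) and 111 to 136 in T + WSD (median 113), and its log2 fold change was −0.38 (SE 0.11, adjusted p = 0.0481, edgeR). Below every T animal in all 6 T + WSD animals were HNRNPF and HNRNPU, 2 of the 40 genes beside 3.10% of all tested genes. HNRNPU, a scaffold of nuclear RNA, had 299 to 340 CPM in T and 255 to 293 in T + WSD. Next in order of p were HNRNPA0 (−0.44, adjusted p = 0.0530), HNRNPF (−0.35, adjusted p = 0.0583) and SRSF5 (0.34, adjusted p = 0.0599), none of which passed edgeR's threshold. Both calls rested on single animals, since the count was 0 (2.33 to 3.69% of all tested genes) without T replicate 13 or 18 or without any of T + WSD replicates 7, 8, 9, 10 and 12, 1 (3.51 to 6.50%) without T replicate 15 or 17, T + WSD replicate 11, C replicates 2, 3 or 4 or WSD replicates 22 or 23, and 4 (6.92 to 9.08%) without C replicate 1, C replicate 5 or WSD replicate 21. These counts do not all keep the lower direction. The 1 call without T replicate 17 was higher in T + WSD, and so were 2 of the 4 without C replicate 1. LUC7L3, singled out on the C, T and WSD animals, is among those 4.

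**Figure D2:**
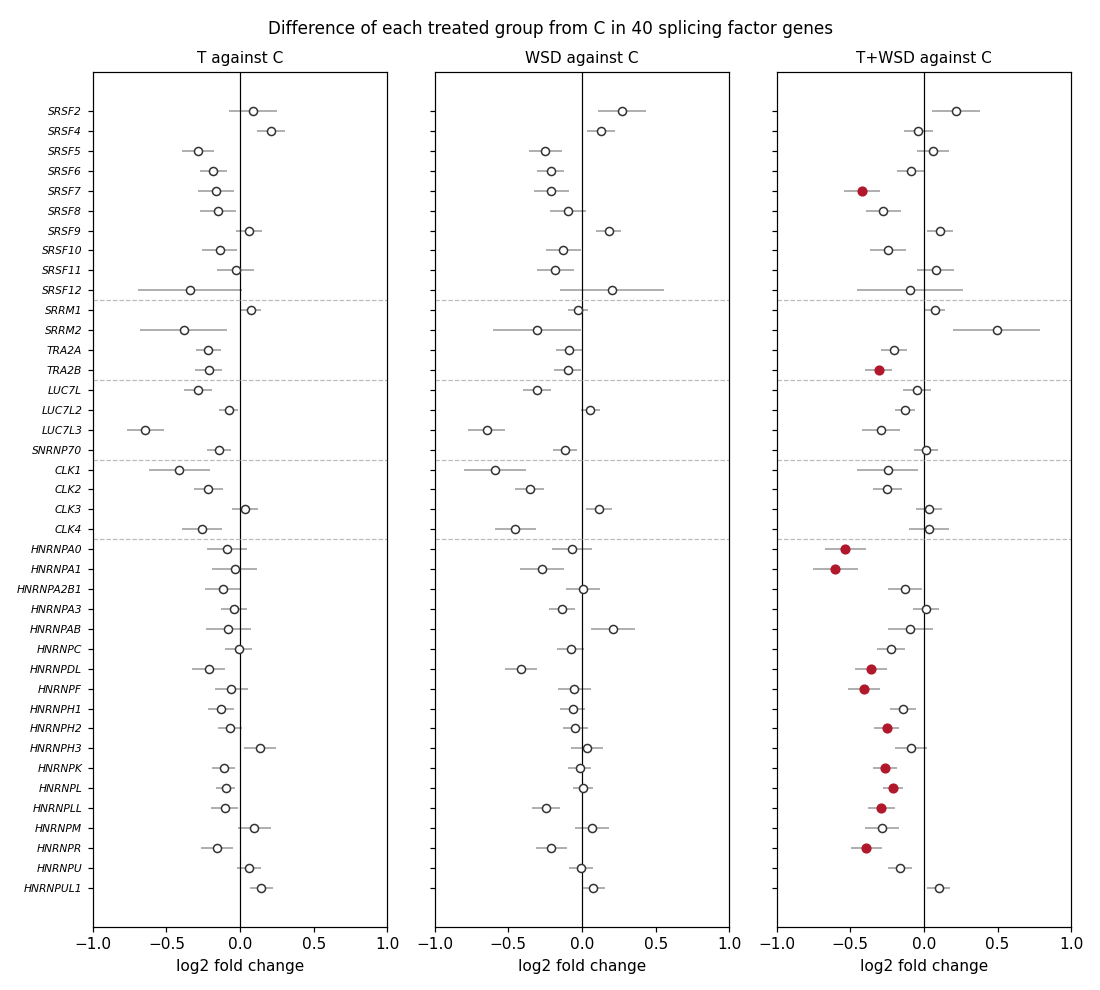
Log2 fold change (horizontal axis, with SE) of each of the 40 genes in T, WSD and T + WSD against C, grouped by role with dashed lines between roles; filled red points passed edgeR's adjusted p under 0.05. In the T + WSD panel 11 points are filled and all lie left of 0, 9 of them hnRNPs, while LUC7L3 lies furthest left in the panels of T and WSD.

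Testosterone alone and diet alone gave smaller changes in number. In T against C edgeR called 0 of the 40 genes (0% of all tested genes), 7 had an unadjusted p under 0.05 beside 8.63% of all tested genes, and DESeq2 called 1 (0.0732% of all tested genes). LUC7L3 is among the 7 and is that 1, and as it was singled out on this comparison the counts to read are 6 and 0. In WSD against C edgeR again called 0 (0% of all tested genes), 9 had an unadjusted p under 0.05, all lower, beside 18.5% of all tested genes in either direction and 8.87% lower, and DESeq2 called 3 (2.59% of all tested genes). Apart from LUC7L3, which is among both for the same reason, these were 8 and 2, and the 2 were HNRNPDL and CLK2. The median log2 fold change of the 40 genes was −0.11 in T and −0.08 in WSD, beside −0.02 in both over all tested genes. Both comparisons share the C animals, so their values are set side by side only.

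LUC7L3, the LUC7-like protein with a long arginine-serine tail, had 93.4 to 181 CPM in C (median 118), 72.5 to 99.9 in T (median 81.9), 73.3 to 107 in WSD (median 78.1) and 96.7 to 117 in T + WSD (median 104). Below every C animal lay 5 of the 6 T animals and 5 of the 6 WSD animals, while the T + WSD range sat inside that of C. As LUC7L3 was singled out on these comparisons, its log2 fold changes of −0.64 (SE 0.13) in T and −0.65 (SE 0.13) in WSD are a description without a test. In T + WSD against C the log2 fold change was −0.29 (SE 0.13, adjusted p = 0.117, edgeR), which did not pass. Without C replicate 5, the lowest C animal, LUC7L3 did pass in that comparison (log2 fold change −0.37, adjusted p = 0.0355, edgeR). Against T it was 0.35 (SE 0.13, adjusted p = 0.0910, edgeR), and it passed without C replicate 1 (adjusted p = 0.0336). These comparisons of T + WSD reuse the C or T animals on which LUC7L3 was singled out. Their values and p for LUC7L3 are therefore read as a description too.

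The other LUC7-like genes behaved differently from one another. LUC7L, a human counterpart of the yeast U1 protein that gave the family its name, had 27.3 to 38.9 CPM in C (median 34.0), 23.9 to 31.3 in T (median 28.1), 23.1 to 30.7 in WSD (median 27.8) and 30.7 to 35.4 in T + WSD (median 31.8). The groups overlapped C throughout, with log2 fold changes of −0.28 (SE 0.10, adjusted p = 0.519) in T, −0.31 (SE 0.10, adjusted p = 0.143) in WSD and −0.05 in T + WSD by edgeR. LUC7L2 had 52.1 to 63.2 CPM in C, 52.9 to 60.3 in T, 56.6 to 74.1 in WSD and 50.9 to 56.5 in T + WSD. SNRNP70, the U1 protein that SR proteins contact, had 81.6 to 101 CPM in C and 84.7 to 105 in T + WSD, with a log2 fold change of 0.01.

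Among SR proteins and their partners the single treatments left 2 patterns in the ranges. SRSF4, a long SR protein, was 34.9 to 46.0 CPM in C and 46.3 to 50.9 in T, so that all 6 T animals were above every C animal, 1 of the 40 genes beside 0.138% of all tested genes above. The SRSF4 gap was narrow, with a log2 fold change of 0.21 (SE 0.10, adjusted p = 0.569, edgeR). SRSF5, TRA2A and TRA2B had, after LUC7L3 and LUC7L, the smallest p of the 40 genes in T against C, with log2 fold changes of −0.28, −0.22 and −0.21, each with an adjusted p of 0.547 by edgeR.

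CLK1, CLK2 and CLK4 had their lowest group median in WSD, but lower values were not confined to WSD. Their log2 fold changes against C were −0.41, −0.21 and −0.26 in T and −0.25, −0.25 and 0.03 in T + WSD. Within the 16 libraries outside the high-share set the T values were 0.04, −0.04 and −0.01, and the WSD values −0.42, −0.30 and −0.42. CLK1 had 103 to 260 CPM in C (median 166) and 66.7 to 140 in WSD (median 116), a log2 fold change of −0.59 (SE 0.21, adjusted p = 0.167, edgeR). CLK2 had 28.3 to 38.2 CPM in C (median 28.8) and 20.99 to 28.6 in WSD (median 23.3), with 5 of the 6 WSD animals below every C animal and a log2 fold change of −0.35 (SE 0.10, adjusted p = 0.131, edgeR). CLK4 had 32.1 to 50.2 CPM in C (median 39.1) and 21.1 to 34.0 in WSD (median 31.0), a log2 fold change of −0.45 (SE 0.14, adjusted p = 0.136, edgeR). CLK3 had 30.8 to 36.6 CPM in C and 31.8 to 44.6 in WSD, with a log2 fold change of 0.11. HNRNPDL, described above, had a log2 fold change of −0.41 (SE 0.11, adjusted p = 0.131, edgeR) in WSD. None of these passed edgeR's test.

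The interaction of testosterone and diet asks whether testosterone acts differently on the 2 diets, and is the log2 fold change of T + WSD against WSD minus that of T against C. At the adjusted p under 0.1 that the study set for this term, edgeR called 3 of the 40 genes, all positive, which is 7.50% of the set beside 0.809% of all tested genes in either direction and 0.519% positive. They were LUC7L3 (log2 interaction 1.0, SE 0.18, adjusted p = 0.0197, edgeR), LUC7L (0.55, SE 0.14, adjusted p = 0.0935, edgeR) and CLK4 (0.74, SE 0.19, adjusted p = 0.0997, edgeR). The term uses the C, T and WSD animals on which LUC7L3 was singled out. The value and p of LUC7L3 are therefore not independent of that choice and are read as a description. Apart from LUC7L3, the calls to read beside these shares are LUC7L and CLK4. The study's rule for synergy also asks that testosterone have the same sign of effect on chow and on the Western-style diet, which none of the 3 genes meets. The log2 fold changes of testosterone on chow and on that diet were −0.64 and 0.36 for LUC7L3, −0.28 and 0.26 for LUC7L, and −0.26 and 0.48 for CLK4. SRSF5 at 0.59 (SE 0.16, adjusted p = 0.106, edgeR) lay just outside the threshold. CLK1 at 0.75 (SE 0.30, adjusted p = 0.264, edgeR) and SRRM2 at 1.18 (SE 0.42, adjusted p = 0.219, edgeR) did not pass either, and SRRM2 rests on few counts.

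For the 3 genes, which a positive term had picked, the T and WSD medians lay under that of C. The T + WSD median was 39.8 CPM beside 39.1 in C for CLK4, 31.8 beside 34.0 for LUC7L and 104 beside 118 for LUC7L3. CLK4 had 25.9 to 44.3 CPM in T (median 32.3) and 36.6 to 47.2 in T + WSD (median 39.8), beside the WSD and C values above. SRSF5 had 90.9 to 143 CPM in C (median 105), 74.6 to 113 in T (median 83.1), 85.2 to 104 in WSD (median 90.6) and 108 to 129 in T + WSD (median 112). For CLK4, LUC7L and SRSF5 all 6 T + WSD animals were above every WSD animal, 3 of the 40 genes beside 1.47% of all tested genes, and for LUC7L2 all 6 were below, 1 of the 40 beside 1.37%. LUC7L was a near tie, with 30.6925 CPM in WSD replicate 19 and 30.6943 in T + WSD replicate 11. The LUC7L2 gap was narrow too, with 56.587 CPM in WSD replicate 23 and 56.5175 in T + WSD replicate 12.

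**Figure D3:**
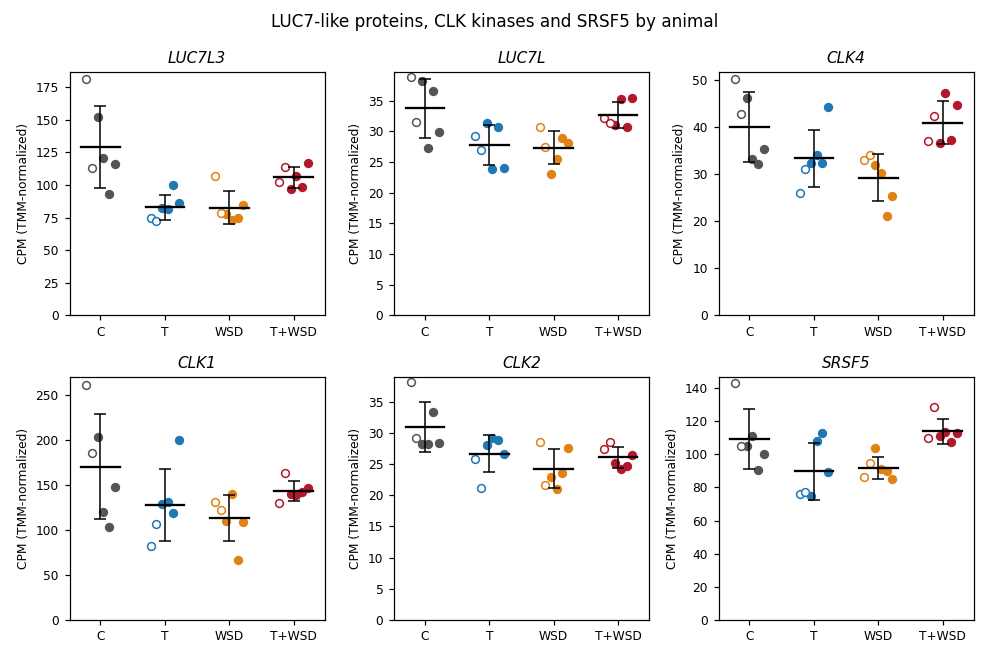
CPM (TMM-normalized, linear axis from 0) of LUC7L3, LUC7L, CLK4, CLK1, CLK2 and SRSF5 in each of the 24 animals by group, with the mean and SD of 6 animals as bars and the high-share libraries as open circles. For CLK4, SRSF5 and, by a near tie, LUC7L every T + WSD animal lies above every WSD animal. For LUC7L3 the T and WSD means lie below those of C and T + WSD.

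Within the 16 libraries outside the high-share set the log2 interaction was 0.87 for LUC7L3, 0.57 for LUC7L and 0.62 for CLK4, and within the 8 high-share libraries it was 1.22, 0.44 and 0.94. A fit of edgeR on the 16 alone called 0 of the 40 genes, beside 0.0129% of all tested genes, and 8 had an unadjusted p under 0.05, beside 9.63%. The log2 interaction of LUC7L3 was 0.90 to 1.08 over the 24 fits that left out 1 animal, which rest on the same choice of the gene. LUC7L and CLK4 were near the threshold, and the count fell to 1 (0.261 to 0.463% of all tested genes) without any of C replicates 1, 3 or 6, T replicates 13, 14 or 15, WSD replicates 20, 22 or 24, or T + WSD replicates 7 to 12. It was 5 (3.44% of all tested genes) without WSD replicate 21, the animal with the lowest CPM of its group for 26 of the 40 genes beside 16.7% of all tested genes. With the mesothelial mean as a covariate 2 genes were called, LUC7L3 and LUC7L (adjusted p = 0.0729, edgeR), beside 0.506% of all tested genes.

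Among animals on the Western-style diet, with T + WSD set against WSD, edgeR called 0 of the 40 genes beside 1.67% of all tested genes. An unadjusted p under 0.05 was reached by 14, of which 5 were higher (7.90% of all tested genes) and 9 lower (12.1%), and DESeq2 called 4 (4.72% of all tested genes), CLK4, HNRNPA0, HNRNPK and HNRNPL. CLK4 had the smallest p, with a log2 fold change of 0.48 (SE 0.14, adjusted p = 0.0656, edgeR), followed by HNRNPA0 at −0.47 (SE 0.14, adjusted p = 0.0716, edgeR), HNRNPF at −0.35 (SE 0.11, adjusted p = 0.0834, edgeR), HNRNPL at −0.21 (SE 0.07, adjusted p = 0.0891, edgeR) and HNRNPK at −0.25 (SE 0.08, adjusted p = 0.0936, edgeR). LUC7L3 had 0.36 (SE 0.13, adjusted p = 0.121, edgeR), a description only, since it was singled out on these WSD animals. Leaving out WSD replicate 21 gave 5 called genes (CLK4, HNRNPA0, HNRNPF, HNRNPL and HNRNPM), beside 5.48% of all tested genes, and leaving out C replicate 1 gave 2 (CLK4 and HNRNPA0), beside 2.22%.

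The effects of testosterone on the 2 diets share no animals. Lower with testosterone on both diets were 19 genes, lower on chow and higher on the Western-style diet were 12, higher on chow and lower on the Western-style diet were 7, and higher on both were 2. Lower on chow were 77.5% of the 40 genes beside 53.5% of all tested genes. On the Western-style diet these shares were 65% and 54.6%. The joint patterns were not counted over all tested genes. For the 18 hnRNPs the median log2 fold change of testosterone was −0.07 on chow and −0.17 on the Western-style diet. For the 4 CLKs it was −0.24 and 0.22, and for the 4 U1 and LUC7-like genes −0.21 and 0.19. The CLK values on chow depended on the libraries. Within the 16 outside the high-share set, CLK1, CLK2, CLK3 and CLK4 had 0.04, −0.04, 0.17 and −0.01 on chow. On the Western-style diet they had 0.41, 0.08, −0.08 and 0.61 in these 16. For the 10 SR proteins it was −0.14 and −0.09, and for the 4 SR-related proteins −0.22 and −0.01. Whether these differ by role was not tested. Over all tested genes these medians were −0.02 and −0.03.

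**Figure D4:**
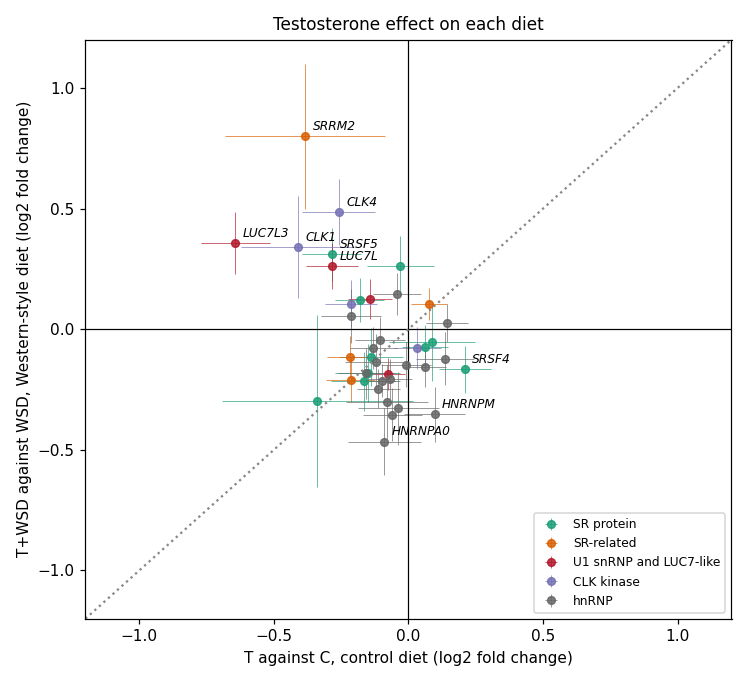
Log2 fold change of testosterone on chow (T against C, horizontal) and on the high-fat diet (T + WSD against WSD, vertical) for the 40 genes, coloured by role, with SE as error bars and a dotted line where both are equal. LUC7L3, LUC7L, CLK4, CLK1 and SRSF5 lie in the upper left quadrant, lower on chow and higher on the Western-style diet, while most hnRNPs lie below 0 on the vertical axis.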

How the data were processed

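RNA-seq of omental WAT was read from 1 table with 1 column per animal, in which the authors deposited raw counts per Ensembl gene without normalization. Per the labels and the study's methods, ribosomal RNA was depleted, reads were trimmed with Trimmomatic 0.36 and aligned to rheMac8 with STAR 2.5.2b, and DESeq2 1.18.1 was used. The counting tool and its strand setting are not given in the sources used here, so reads of genes that overlap or have near-identical copies, as hnRNP genes do, may be split between them. Animals were grouped by their labels, and replicates are separate animals.

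Library sizes were scaled by TMM, and differences were tested by edgeR 4.0.16 under R 4.3.3 (quasi-likelihood F-test, robust and legacy options on, 1 fit of 4 groups over 24 animals, two-sided). The filter filterByExpr (minimum count 10, minimum total 15) kept 15207 of 32386 genes, and p values were adjusted over these by Benjamini-Hochberg. SEs are log2 fold changes divided by the square root of F. The fit was tested on simulated data. DESeq2 1.42.0 was an alternative, with other normalizations, filters, covariates and subsets of animals. Depth limits low genes, and counting error is included in the spread between animals.

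The 40 members, the gene lists and the tests were chosen with earlier results of these data known. Named with values are LUC7L3 and, per comparison, the called members (the 8 with the smallest p where there are more), and where fewer than 3 were called those with the smallest unadjusted p, up to 5. HNRNPL, HNRNPLL, HNRNPH2 and other members were named after their values were seen. All 40 symbols came from the gene name table. No genome, sequence or gene length was used here, so levels are not compared between genes. The bisulfite sequencing was not analysed here. The result of 1 further gene list is not reported here.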

Additional observations from a re-analysis of the deposited data

Results flagged for a closer look

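The CPM of each group of 6 was checked for an animal set apart from the other 5 (a gap to the nearest animal over 0.625 of the group's range) in 64 groups of 16 members, and 2 animals stood apart, where chance sets apart about 1 group in 20. LUC7L3 stood at 106.6 CPM in WSD replicate 19, a high-share library, and at 73.3 to 84.99 in the other WSD animals. SRSF5 stood at 128.9 CPM in T + WSD replicate 8, the shallowest library and also a high-share one, and at 107.6 to 113.4 in the other T + WSD animals.

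The effect of testosterone differed between the diets by edgeR's interaction test for LUC7L3 (log2 interaction 1.0), CLK4 (0.74) and LUC7L (0.55). The LUC7L3 value uses the C, T and WSD animals on which that gene was singled out and is a description. The cause of these differences was not tested.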

How the results depend on the processing

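No paired analysis was possible because the replicate numbers name single animals and the groups share none. In T + WSD against C the 11 calls became 1 with a fold change over 1.5, 0 in the 16 libraries outside the high-share set (fewer animals) and 0 with the mesothelial covariate, and were within 1.5 times of 11 under the other alternatives run. DESeq2 called 1 member in T against C, 3 in WSD against C, 4 in T + WSD against WSD, 7 in T + WSD against T and 5 in the interaction; the calls against C in T and in WSD include LUC7L3, singled out there. At least 10 counts in every animal gave 1 in T + WSD against WSD. The 2 calls of T + WSD against T became 0 with a fold change over 1.5 or the mesothelial covariate, 1 with RLE normalization, without a filter on low counts, in the 16 libraries or without ENSMMUG00000038258, and 5 with only the groups compared. Of these 5, 2 were higher in T + WSD, as were 3 of the 7 by DESeq2. Upper-quartile normalization and at least 10 counts in every animal each gave 1 higher and 1 lower. The 3 interaction calls, LUC7L3 among them, became 1 at an adjusted p under 0.05 or without a filter, and 0 in the 16 libraries. Leaving out 1 animal at a time gave 0 to 1 calls in T and in WSD against C (1 without C replicate 5 in both, and without WSD replicate 19 in WSD, each LUC7L3), 2 to 14 in T + WSD against C, 0 to 5 in T + WSD against WSD, 0 to 4 in T + WSD against T and 1 to 5 in the interaction. Of the values of members named in each comparison, 283 were counted as kept under the alternatives other than leaving out single animals. Of the rest 36 lost their call and 18 gained one. With 1 animal left out these numbers were 712, 85 and 19, and no such value changed sign. Kept means the same side of the threshold, except for LUC7L3 in T and in WSD against C. There it means a log2 fold change that moved by less than the SD within groups, whether or not LUC7L3 crossed the threshold. Other causes were not tested.

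Over all genes, DESeq2 called 11 in T and 389 in WSD against C where edgeR called 0, 799 against 254 in T + WSD against WSD, 1787 against 988 in T + WSD against T and 481 against 123 in the interaction. Depth limits SRRM2 and SRSF12 most.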
